A study of Mus musculus with 6 samples.

Results

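The genes described here are *Trp53*, which encodes the transcription factor p53, and 9 of its direct targets, *Cdkn1a*, *Mdm2*, *Ccng1*, *Bax*, *Bbc3*, *Trp53inp1*, *Zmat3*, *Eda2r* and *Phlda3*. They were taken by symbol from a list that was drawn up with earlier results of these data known, so that the counts below describe these genes and are not independent evidence of a direction. All 10 were found among the 52089 symbols of the deposited table, and all 10 were among the 11701 genes that were abundant enough to be tested. The libraries come from primary brite adipocytes, thermogenic fat cells that arise within white fat. Preadipocytes of the stromal-vascular fraction of inguinal white adipose tissue (WAT) from 129SvEv mice went through 2 days of induction and 1 day of differentiation with rosiglitazone, a PPARγ agonist that favours browning. Both groups were reverse transfected with 50 nM of an LNA gapmer, a short antisense oligonucleotide (ASO) that directs the cleavage of the RNA it pairs with. In *Ctcflos* KD (3 libraries) the ASO was directed at the long noncoding RNA *Ctcflos*, and in NC ctrl (3 libraries) it was non-targeting. The libraries of both groups were harvested after 24 h.

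These libraries hold 1 ASO against *Ctcflos*, so that loss of *Ctcflos* and other effects of this oligonucleotide cannot be told apart. Neither the labels nor the methods say whether the replicates were separate cultures, so that the p-values measure the spread between these samples, which may be technical. In bulk RNA, fewer cells that express a gene and less RNA per cell cannot be told apart.

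The transcription factor p53 is kept at a low level in resting cells because MDM2, an E3 ubiquitin ligase, marks it for degradation. DNA damage, ribosomal or nucleolar stress and other insults release p53 from MDM2, mostly by acting on the protein, and p53 then binds response elements at its targets and activates them. The targets halt the cell cycle, promote apoptosis, support DNA repair or, as *Mdm2* does, feed back on p53. In fat tissue, p53 is known for its part in adipocyte differentiation and in senescence.

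Promoter stretches of 5 genes are shown because they hold the p53 decamer, the 10-base unit of which a p53 response element holds a pair. RefSeq promoter windows on GRCm38.p6, from 250 bases before a transcript start to 50 bases after it, were given for 8 of the 10 genes, and for *Trp53inp1* and *Zmat3* no window was used here. The decamer reads the same on both strands and consists of 3 purines, a C, 2 bases that are A or T, a G and 3 pyrimidines. It occurred in the windows of 5 of the 8 genes, and in 2582 of 27025 genes (9.55%) over all promoters. The stretches are printed 5′ to 3′ along the strand of the gene, with the decamer in capitals and 15 bases on each side:
*Trp53* (chr11:69580269-69580308, plus strand): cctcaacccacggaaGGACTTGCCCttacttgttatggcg
*Cdkn1a* (chr17:29090891-29090952, plus strand): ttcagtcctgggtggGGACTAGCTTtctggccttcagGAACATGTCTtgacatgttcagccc
*Mdm2* (chr10:117710920-117710959, minus strand): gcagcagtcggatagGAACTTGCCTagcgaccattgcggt
*Ccng1* (chr11:40755447-40755486, minus strand): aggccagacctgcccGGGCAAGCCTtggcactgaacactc
*Bax* (chr7:45467075-45467114, minus strand): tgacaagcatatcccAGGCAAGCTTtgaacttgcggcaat

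The *Cdkn1a* window held 2 decamers, with their first bases at -73 and -51 relative to the start. It was also the only window of these genes with the spaced core CATGNNNNNNCATG, which begins at -48, overlaps the second decamer and was found in 0.712% of all 32851 windows. In the other genes, the decamer began at -75 (*Trp53*), -186 (*Mdm2*), -185 (*Ccng1*) and -201 (*Bax*). The windows of *Bbc3*, *Eda2r* and *Phlda3* held no decamer, which says only that these letters are not in these windows. A match is a description of the sequence and not a site shown to bind p53.

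Expression is given in RPKM, reads per kilobase of transcript per mio mapped reads, averaged over the transcript accessions of a gene. The depth recovered from the values was 60.8 to 75.6 mio mapped reads in *Ctcflos* KD and 62.9 to 79.2 mio in NC ctrl, each mate of a pair counted. *Ctcflos*, listed under the symbol 1300015D01Rik, kept 16.1% of its control level, at 0.126 RPKM in *Ctcflos* KD against 0.780 RPKM in NC ctrl. Both levels are under 1 RPKM, and they are means over the accessions of the gene and not the level of a single transcript. The markers of the labelled cell type were present, with all 6 adipocyte markers at a mean of at least 1 RPKM. Their summed level was 3948 to 5304 RPKM in *Ctcflos* KD and 5602 to 6229 RPKM in NC ctrl. This sum was mostly *Fabp4*, with means of 3291 RPKM in *Ctcflos* KD and 4041 RPKM in NC ctrl. The brite markers *Ucp1*, *Cidea* and *Ppargc1a* passed 1 RPKM and *Prdm16* did not. Over all genes tested, 24.0% differed between the groups at an adjusted p under 0.05 (limma-trend), 11.5% being higher and 12.4% lower in *Ctcflos* KD.

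Of the 10 genes, 5 rose in *Ctcflos* KD, namely *Trp53*, *Mdm2*, *Trp53inp1*, *Eda2r* and *Bax*, none fell and 5 did not pass the test (limma-trend on log2(RPKM + 1), Benjamini-Hochberg adjusted over 11701 genes). The background share of higher calls was 11.5%. The largest change was that of *Trp53inp1*, at 2.72 times the control mean, followed by *Mdm2* at 1.91 times. The median log2 fold change was 0.43 over the 10 genes and 0.03 over all genes tested. Every *Ctcflos* KD library lay above every NC ctrl library in 6 of the 10 genes, as in 22.9% of all genes tested. The groups were fully apart in either direction in 44.8% of all genes tested. The count of 5 moved with the controls, as 1 of the 10 genes was called without NC ctrl replicate 1 and 2 without NC ctrl replicate 3. In these 2 settings the calls over all genes fell too, from 2803 to 421 and 369. An unadjusted p under 0.05 (limma-trend) was reached by 6 of the 10 genes with all libraries, and by 4556 of all 11701 genes tested. Without NC ctrl replicate 1 it was reached by 6 of the 10 genes, and without NC ctrl replicate 3 by 4. In each of these 2 settings, 3323 of all genes tested reached it.

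**Figure D1:**
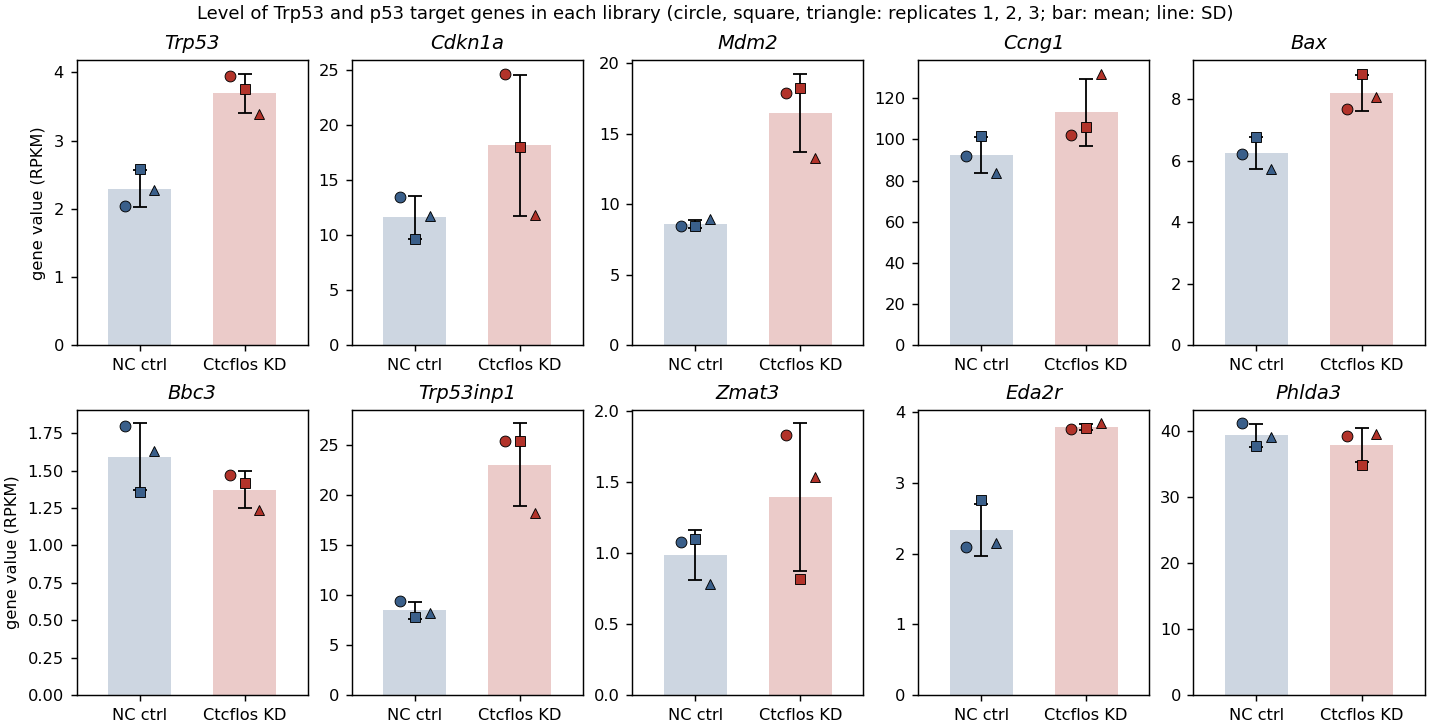
RPKM of each of the 10 genes, 1 panel a gene with its own linear axis from 0, in the 3 NC ctrl (blue) and 3 *Ctcflos* KD (red) libraries. Points are libraries (circle, square and triangle for replicates 1, 2 and 3), bars are means and lines are the SD, and the *Ctcflos* KD points of *Trp53inp1* lie at 18.2 to 25.5 RPKM, all above the controls at 7.79 to 9.42 RPKM, whereas those of *Phlda3* and *Bbc3* mix with the controls.

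*Trp53* (chr11:69580359-69591873, plus strand, GRCm38) encodes p53 itself. It was measured at 3.95, 3.76 and 3.39 RPKM in *Ctcflos* KD replicates 1 to 3 and at 2.04, 2.58 and 2.28 RPKM in NC ctrl replicates 1 to 3. All 3 KD libraries were above all 3 controls. The mean rose from 2.30 ± 0.274 to 3.70 ± 0.285 RPKM (SD, n = 3 each), a ratio of 1.61, with a log2 fold change of 0.51 (standard error 0.102, adjusted p = 0.0139, limma-trend). All 10 transcript accessions of *Trp53* showed the same separation, with ratios from 1.41 to 1.65. Accessions of a gene share reads and are not independent. The call was lost without NC ctrl replicate 1 (adjusted p = 0.0710, limma-trend) and without NC ctrl replicate 3 (adjusted p = 0.0705, limma-trend).

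*Mdm2* (chr10:117688875-117710758, minus strand) encodes the ubiquitin ligase that marks p53 for degradation and is itself a target of p53. It was measured at 17.9, 18.2 and 13.2 RPKM in *Ctcflos* KD and at 8.43, 8.49 and 8.95 RPKM in NC ctrl. The controls were close together, and the lowest KD library, replicate 3, was still above them. *Mdm2* rose from 8.62 ± 0.287 to 16.5 ± 2.79 RPKM (SD, n = 3 each), with a log2 fold change of 0.85 (standard error 0.138, adjusted p = 0.00832, limma-trend). Its change ranked 217 among the 11701 genes tested. Of its 13 accessions, 11 had all KD libraries above all controls, with ratios over all 13 from 1.61 to 2.46. Without NC ctrl replicate 1, the adjusted p was 0.0502 (limma-trend).

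*Ccng1* (chr11:40748552-40755311, minus strand) encodes cyclin G1, which acts with a phosphatase on MDM2 and is among the classical p53 targets. It was the most abundant of the 10 genes in both groups. Its values were 102.0, 105.8 and 131.9 RPKM in *Ctcflos* KD and 91.8, 101.6 and 83.9 RPKM in NC ctrl. Every KD library was above every control, but KD replicate 1 and NC ctrl replicate 2 were nearly level, and the groups overlapped in 5 of its 8 accessions, the RefSeq accession among them. The log2 fold change of 0.29 had a 95% interval from -0.06 to 0.63 (adjusted p = 0.191, limma-trend), and *Ccng1* was not called under any alternative.

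*Cdkn1a* (chr17:29090976-29100727, plus strand) encodes the CDK inhibitor p21, through which p53 halts the cell cycle. It was measured at 24.7, 18 and 11.9 RPKM in *Ctcflos* KD and at 13.5, 9.66 and 11.7 RPKM in NC ctrl. *Ctcflos* KD replicates 1 and 2 were above all controls and replicate 3 was within their range. The means were 18.2 ± 6.40 and 11.6 ± 1.93 RPKM (SD, n = 3 each), a ratio of 1.56, and the log2 fold change of 0.56 had a 95% interval from 0.0019 to 1.11 (adjusted p = 0.127, limma-trend). Thus, *Cdkn1a* did not pass the test although its change was as large as that of *Trp53*, and its coefficient of variation within *Ctcflos* KD was 35.2%. Single KD libraries moved its value both ways, as the log2 fold change was 0.82 without *Ctcflos* KD replicate 3 (adjusted p = 0.00972, limma-trend), which would be a call, and 0.32 without replicate 1 (adjusted p = 0.322, limma-trend). *Cdkn1a* overlaps the gene AC167363.2 on the opposite strand by 1046 bases, and no source used here says that reads were counted by strand, so that reads of the pair cannot be told apart there.

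The KD libraries also differed among themselves. *Ctcflos* KD replicate 3 was the lowest KD library in 5 of the 10 genes, *Trp53*, *Cdkn1a*, *Mdm2*, *Bbc3* and *Trp53inp1*, and the highest in 3, *Ccng1*, *Eda2r* and *Phlda3*. It was also the KD library with the most remaining *Ctcflos*, at 0.210 RPKM against 0.0969 and 0.0705 RPKM in replicates 1 and 2, and with the least depth. The part of these differences in the spread of the p53 genes was not tested.

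*Bax* (chr7:45461697-45466898, minus strand) encodes an effector of the BCL2 family that permeabilises the outer mitochondrial membrane. It was measured at 7.68, 8.82 and 8.05 RPKM in *Ctcflos* KD and at 6.20, 6.78 and 5.74 RPKM in NC ctrl. All KD libraries were above all controls. The mean rose from 6.24 ± 0.519 to 8.18 ± 0.583 RPKM (SD, n = 3 each), with a log2 fold change of 0.34 (standard error 0.105, adjusted p = 0.0481, limma-trend). This is the weakest of the 5 calls and held under 4 of 13 alternatives, over which the adjusted p ranged from 0.0357 to 0.190 (limma-trend). It was lost, among others, without any 1 of the 3 controls and without *Ctcflos* KD replicate 1 or 2. *Bax* also overlaps the gene Gm45808 on the same strand by 915 bases, where reads of the pair cannot be told apart.

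*Bbc3* (chr7:16308393-16318205, plus strand), the gene of PUMA, encodes a BH3-only protein that activates BAX and is the classical apoptotic target of p53. Its values were 1.47, 1.42 and 1.24 RPKM in *Ctcflos* KD and 1.80, 1.35 and 1.63 RPKM in NC ctrl. The groups overlapped, with the 2 highest values in controls. The log2 fold change was -0.13 with a 95% interval from -0.36 to 0.11 (adjusted p = 0.382, limma-trend). The Ensembl transcript of *Bbc3* held an estimated 142.1 to 264.8 reads in each library.

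*Trp53inp1* (chr4:11156431-11174379, plus strand) encodes a stress protein that cooperates with p53 in apoptosis and takes part in autophagy. It was measured at 25.4, 25.5 and 18.2 RPKM in *Ctcflos* KD and at 9.42, 7.79 and 8.20 RPKM in NC ctrl. Even the lowest KD library was far above the highest control. *Trp53inp1* rose from 8.47 ± 0.849 to 23.0 ± 4.16 RPKM (SD, n = 3 each), with a log2 fold change of 1.33 (95% interval 0.98 to 1.68, standard error 0.153, adjusted p = 0.00353, limma-trend). It ranked 37 among all 11701 changes and was called under all 13 alternatives. Its 8 accessions had ratios from 2.57 to 2.90.

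*Eda2r* (chrX:97333840-97377216, minus strand) encodes a receptor of the tumour necrosis factor family that binds ectodysplasin A2. It was measured at 3.77, 3.78 and 3.85 RPKM in *Ctcflos* KD and at 2.10, 2.77 and 2.15 RPKM in NC ctrl. The KD libraries were nearly identical, with a coefficient of variation of 1.14%, and all were above the controls. The mean rose from 2.34 ± 0.371 to 3.80 ± 0.0433 RPKM (SD, n = 3 each), with a log2 fold change of 0.53 (standard error 0.104, adjusted p = 0.0134, limma-trend). Each of the 8 accessions had all KD libraries above all controls, with ratios from 1.38 to 2.13. The call was lost with the most abundant accession alone (adjusted p = 0.0510, limma-trend) and without NC ctrl replicate 1 or 3 (adjusted p = 0.0687 and 0.0731, limma-trend).

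*Zmat3* (chr3:32334792-32366014, minus strand) encodes a zinc finger protein that binds RNA and regulates the splicing and stability of transcripts. It was the weakest of the 10 genes in NC ctrl. Its values were 1.83, 0.820 and 1.54 RPKM in *Ctcflos* KD and 1.08, 1.10 and 0.779 RPKM in NC ctrl. *Ctcflos* KD replicates 1 and 3 were above all controls, and replicate 2 lay among them. The control mean was under 1 RPKM, so that *Zmat3* passed the filter through *Ctcflos* KD. The log2 fold change was 0.25 with a 95% interval from -0.13 to 0.63 (adjusted p = 0.295, limma-trend).

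*Phlda3* (chr1:135766119-135769136, plus strand) encodes a pleckstrin homology protein that competes with AKT for membrane lipids and thereby represses it. Its values were 39.2, 34.8 and 39.5 RPKM in *Ctcflos* KD and 41.1, 37.7 and 39.1 RPKM in NC ctrl. The groups overlapped. The log2 fold change was -0.06 with a 95% interval from -0.32 to 0.21 (adjusted p = 0.746, limma-trend), so that this interval does not reach the change of *Trp53*.

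**Figure D2:**
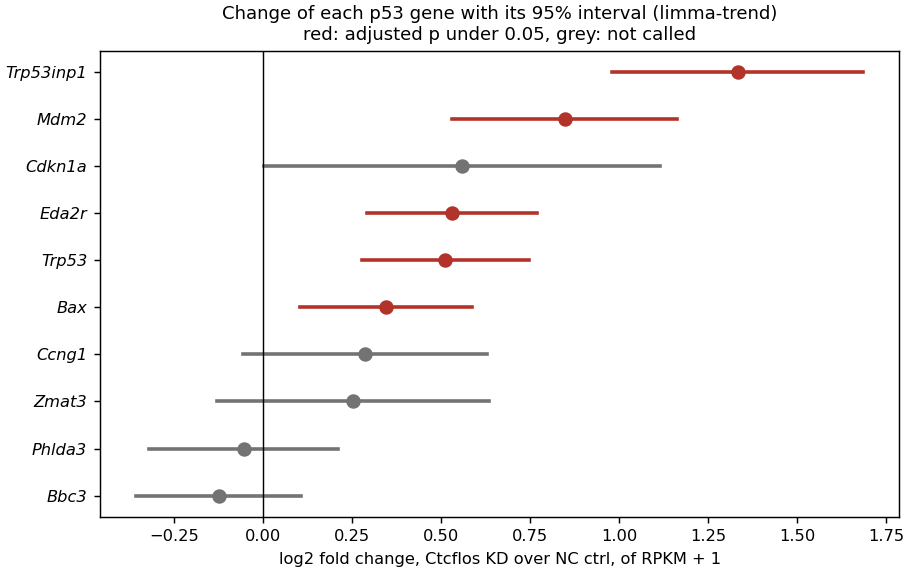
Log2 fold change of RPKM + 1, *Ctcflos* KD over NC ctrl, for the 10 genes, with lines for the 95% interval from limma-trend, red for an adjusted p under 0.05 and grey for genes not called. The intervals of *Trp53inp1* (0.98 to 1.68) and *Phlda3* (-0.32 to 0.21) do not overlap, and that of *Cdkn1a* starts just above 0.

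The levels of the 10 genes, compared per length in RPKM, had a similar order in both groups. In NC ctrl, *Ccng1* (92.4 RPKM) was followed by *Phlda3* (39.3 RPKM), *Cdkn1a* (11.6 RPKM), *Mdm2* (8.62 RPKM), *Trp53inp1* (8.47 RPKM), *Bax* (6.24 RPKM), *Eda2r* (2.34 RPKM), *Trp53* (2.30 RPKM), *Bbc3* (1.59 RPKM) and *Zmat3* (0.984 RPKM). The libraries of *Mdm2* and *Trp53inp1* overlapped, as did those of *Eda2r* and *Trp53*, and the other neighbours did not. In *Ctcflos* KD, *Trp53inp1* came next after *Phlda3* at 23.0 RPKM, with a range overlapping that of *Cdkn1a*, which in turn overlapped *Mdm2*. *Eda2r* and *Trp53* overlapped in *Ctcflos* KD too, and *Zmat3* and *Bbc3* shared the lowest place. Differences between genes were not tested.

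The mean over accessions hides no accession that went against its gene. The 10 genes had 66 accessions, of which 43 had all KD libraries above all controls, none had all below and 23 overlapped. As accessions of a gene share reads, this count mostly repeats the genes, weighted by their number of accessions. The share over all accessions was not computed. Over all genes tested, 22.9% had every KD library above every control. No accession of *Cdkn1a* (7), *Zmat3* (5), *Bbc3* (2) or *Phlda3* (2) separated the groups, whereas all those of *Trp53* (10), *Trp53inp1* (8), *Eda2r* (8) and *Bax* (3) did, as did 11 of 13 of *Mdm2* and 3 of 8 of *Ccng1*. Averaged over RefSeq accessions alone, *Trp53* reached 7.32 RPKM in *Ctcflos* KD against 4.56 RPKM, which is the same ratio of 1.61 at a higher level. 

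**Figure D3:**
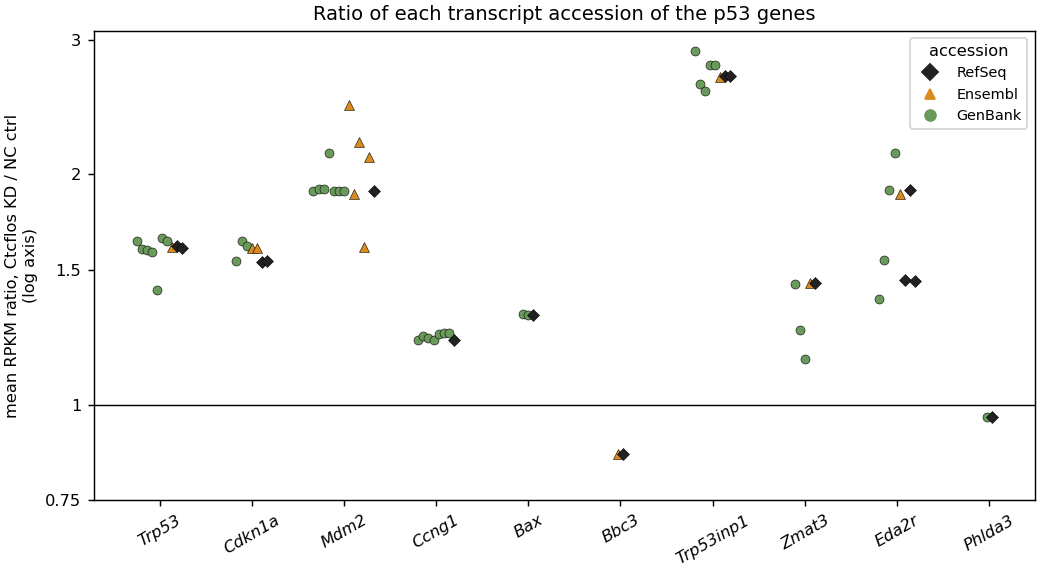
Ratio of the mean RPKM in *Ctcflos* KD to that in NC ctrl (log axis) for each of the 66 transcript accessions of the 10 genes, 1 point an accession, with diamonds for RefSeq, triangles for Ensembl and circles for GenBank and a line at a ratio of 1. The 8 accessions of *Trp53inp1* lie between 2.57 and 2.90, apart from those of the other genes, and the 2 accessions each of *Bbc3* and *Phlda3* lie below 1.

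The genes span 3.02 to 43.4 kb, and in these libraries the share of changed genes differed with span. A span was found for 89.4% of the genes tested, and the other genes are in neither share. Of 7895 tested genes no longer than 43.4 kb, 13.6% were higher and 8.03% lower in *Ctcflos* KD, with a median log2 fold change of 0.08. Of 2567 longer genes, 5.80% were higher and 28.2% lower, with a median of -0.15. The p53 genes are thus to be read against the former share, and 5 of 10 were higher. The part of gene span in their changes was not tested.

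Besides these 10 genes, 112 genes in 10 lists around the p53 pathway were found in the table, of which 84 were abundant enough to be tested. These lists, too, were drawn up with earlier results known. Of the 84, 19 (22.6%) were higher, against 11.5% of all genes, and 2 (2.38%) were lower, against 12.4% of all genes. Both directions together made up 25%, near the 24.0% of all genes. The 4 lists of further p53 targets held 35 tested genes, of which 8 (22.9%) were higher and 1 (2.86%) lower, with a median log2 fold change of 0.12. The count of 21 called list genes moved with every library left out. It was 0 without NC ctrl replicate 1 or 3 and 12 without NC ctrl replicate 2. Without *Ctcflos* KD replicates 1, 2 and 3 it was 10, 8 and 32. An unadjusted p under 0.05 (limma-trend) was reached by 30 of 84 list genes with all libraries, and by 4556 of all 11701 genes. Without NC ctrl replicate 1 it was reached by 24 of 83 list genes, and without NC ctrl replicate 3 by 27 of 84. In each of these 2 settings, 3323 of all genes reached it.

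Among 9 tested genes of growth arrest, 2 (22.2%) were higher and none was lower, against 11.5% and 12.4% of all genes. In either direction, 24.0% of all genes were called. *Plk2*, a polo-like kinase, held 14, 16.9 and 9.13 RPKM in *Ctcflos* KD and 4.33, 5.92 and 5.09 RPKM in NC ctrl (log2 fold change 1.20, adjusted p = 0.00942, limma-trend). *Gadd45a*, a stress sensor that inhibits CDK1, held 5.47, 5.97 and 3.77 RPKM against 2.87, 2.81 and 3.12 RPKM (log2 fold change 0.61, adjusted p = 0.0231, limma-trend). In both genes the groups did not overlap, and KD replicate 3 was the lowest KD library.

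Of 8 tested apoptosis targets, 3 (37.5%) were higher and none was lower, where 11.5% of all genes were higher. *Ei24*, a protein of the endoplasmic reticulum, rose from 7.96 to 12.5 RPKM (log2 fold change 0.59, adjusted p = 0.00924, limma-trend). *Tnfrsf10b*, the death receptor for TRAIL, rose from 2.65 to 6.07 RPKM (log2 fold change 0.92, adjusted p = 0.0123, limma-trend), and the nuclease gene *Aen* rose from 5.80 to 8.35 RPKM (log2 fold change 0.46, adjusted p = 0.0182, limma-trend). *Fas*, another death receptor, was at 1.17 RPKM in *Ctcflos* KD against 1.26 RPKM (adjusted p = 0.711, limma-trend). *Pmaip1*, which encodes the BH3-only protein NOXA, was under the filter, with 0.749, 0.876 and 0.711 RPKM in *Ctcflos* KD and 0.410, 0.427 and 0.538 RPKM in NC ctrl. Its groups did not overlap, and a fit without the filter gave a log2 fold change of 0.29 (adjusted p = 0.115, limma-trend).

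The DNA repair list had 7 tested genes, with 3 (42.9%) higher and 1 lower, against 11.5% and 12.4% of all genes. *Ercc5*, the endonuclease XPG, rose from 1.67 to 3.08 RPKM (log2 fold change 0.60, adjusted p = 0.0166, limma-trend), and *Polk*, a translesion polymerase, from 1.32 to 2.02 RPKM (log2 fold change 0.38, adjusted p = 0.0171, limma-trend). *Gadd45b*, a stress gene related to *Gadd45a*, rose from 8.07 to 18.1 RPKM (log2 fold change 1.00, adjusted p = 0.0386, limma-trend). *Mgmt*, which removes alkyl groups from guanine, fell from 1.81 to 0.650 RPKM (log2 fold change -0.80, adjusted p = 0.0209, limma-trend). *Mgmt* passed the filter of 1 RPKM only through the controls, its mean in *Ctcflos* KD being under 1 RPKM. This gene is also the 1 lower gene of all 4 target lists. By contrast, none of the 11 tested metabolic, autophagy and antioxidant targets was called (limma-trend), where 24.0% of all genes were called. An unadjusted p under 0.05 (limma-trend) was reached by 2 of the 11, and by 4556 of all 11701 genes. Their log2 fold change was above 0 in 4 and below 0 in 7 of the 11.

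Genes that act on p53 were mostly not called, as were 8898 of the 11701 genes tested. Among 5 tested feedback regulators, 1 was higher (20%, against 11.5% of all genes), *Ppm1d*, which encodes the phosphatase WIP1 and held 2.64, 2.53 and 2.26 RPKM in *Ctcflos* KD and 1.69, 1.54 and 1.92 RPKM in NC ctrl (log2 fold change 0.36, adjusted p = 0.0337, limma-trend). *Mdm4*, the partner of *Mdm2* that inhibits p53, had 4.99 against 4.72 RPKM (adjusted p = 0.70, limma-trend). None of 7 tested kinases and cofactors that activate p53 was called, where 24.0% of all genes were called in either direction. An unadjusted p under 0.05 (limma-trend) was reached by 2 of the 7, and by 4556 of all 11701 genes. *Atm*, the kinase of the DNA damage response, was at 2.05 RPKM in *Ctcflos* KD against 2.5 RPKM (adjusted p = 0.242, limma-trend).

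The next list holds ribosomal and nucleolar proteins that act upstream of MDM2 in nucleolar stress. Of 7 tested genes, 3 (42.9%) were higher and none was lower in *Ctcflos* KD, where 11.5% of all genes were higher. *Ncl*, the gene of nucleolin, held 12.6, 13.0 and 10.5 RPKM in *Ctcflos* KD and 6.33, 7.53 and 6.46 RPKM in NC ctrl (log2 fold change 0.74, adjusted p = 0.00838, limma-trend). *Npm1*, the gene of nucleophosmin, held 52.2, 61.4 and 53.3 RPKM against 31.9, 36.0 and 33.4 RPKM (log2 fold change 0.70, adjusted p = 0.00972, limma-trend). *Gnl3*, the gene of nucleostemin, rose from 2.22 to 4.78 RPKM (log2 fold change 0.86, adjusted p = 0.0102, limma-trend). In all 3 genes, the KD libraries were above the controls. The ribosomal protein genes *Rpl5* and *Rpl11*, whose products sequester MDM2, were not called, with 111.2 against 92.2 RPKM for *Rpl5* (adjusted p = 0.310, limma-trend) and 58.0 against 57.8 RPKM for *Rpl11* (adjusted p = 0.971, limma-trend).

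The partners of BAX and PUMA in the BCL2 family included 6 tested genes, of which 2 (33.3%) were higher and 1 (16.7%) lower, against 11.5% and 12.4% of all genes. *Bak1*, the effector related to BAX, held 30.2, 29.9 and 16.1 RPKM in *Ctcflos* KD and 12.7, 12.2 and 14.2 RPKM in NC ctrl (log2 fold change 0.86, adjusted p = 0.0310, limma-trend). *Bok*, a further effector, rose from 2.51 to 3.92 RPKM (log2 fold change 0.49, adjusted p = 0.0309, limma-trend). *Bad*, a BH3-only protein, fell from 6.54 to 4.90 RPKM (log2 fold change -0.35, adjusted p = 0.0383, limma-trend).

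Cell cycle genes that are known to be repressed through *Cdkn1a* included 10 tested genes, none of which was called lower. Of these, 1 (10%) was higher, against 11.5% of all genes, and 9 were not called, where 24.0% of all genes were called in either direction. The higher gene was *Mcm2*, a subunit of the replicative helicase, which rose from 1.76 to 3.32 RPKM (log2 fold change 0.66, adjusted p = 0.0155, limma-trend). Among 14 tested CDK inhibitors, G1 cyclins and their partners, 4 (28.6%) were higher and none was lower, against 11.5% and 12.4% of all genes. The median log2 fold change of this list was -0.04, with 9 of the 14 below 0. *Ccnd1*, the gene of cyclin D1, held 3.63, 2.92 and 4.35 RPKM in *Ctcflos* KD and 1.17, 2.18 and 1.14 RPKM in NC ctrl (log2 fold change 0.90, adjusted p = 0.0139, limma-trend). *Ccne2*, the gene of cyclin E2, rose from 1.62 to 2.34 RPKM (log2 fold change 0.35, adjusted p = 0.0234, limma-trend), and its partner *Cdk2* from 3.08 to 4.20 RPKM (log2 fold change 0.35, adjusted p = 0.0291, limma-trend). *Cdkn2b*, which encodes the CDK inhibitor p15 and is named to complete the 4 after its values were seen, was higher as well, at 19.7 against 10.6 RPKM (adjusted p = 0.0340, limma-trend).

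**Figure D4:**
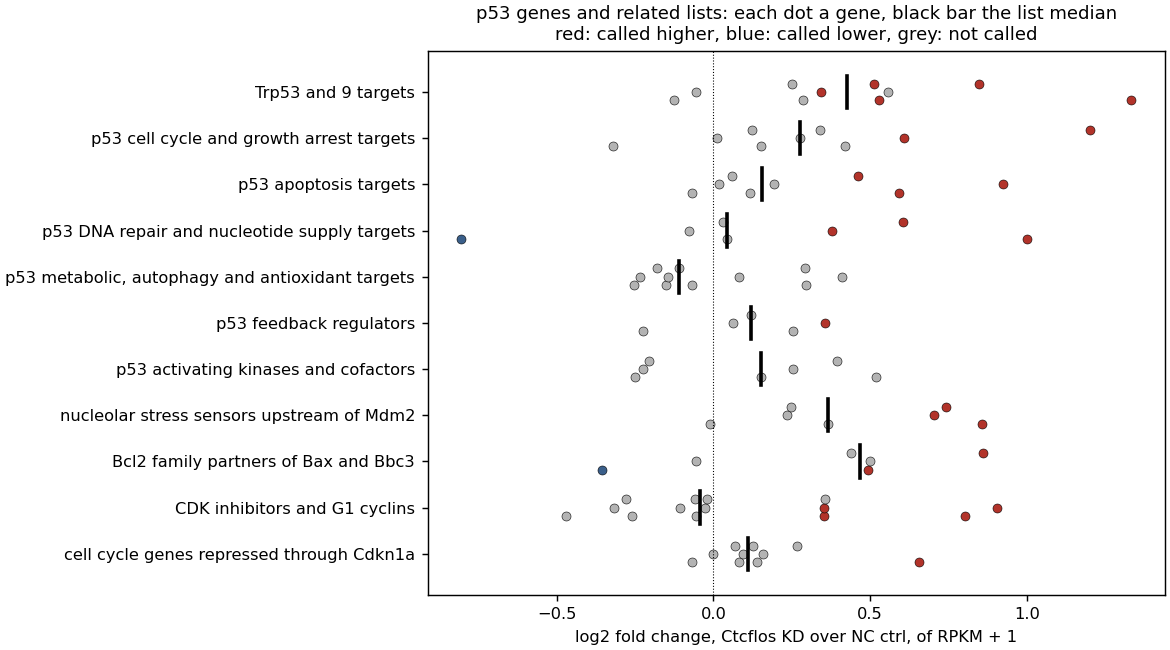
Log2 fold change of RPKM + 1, *Ctcflos* KD over NC ctrl, for each tested gene of the 10 p53 genes (top row) and of the 10 lists, 1 point a gene, red for called higher, blue for called lower and grey for not called (limma-trend, adjusted p under 0.05), with a vertical bar at each median. The p53 genes have 5 of 10 points in red and a median of 0.43, the metabolic list and the kinase list have grey points alone, and the DNA repair and BCL2 lists have 1 blue point each.

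Markers of other cell types moved with the groups in part. The summed level of 4 immune cell markers was 3.40 to 5.45 RPKM in *Ctcflos* KD and 1.02 to 3.15 RPKM in NC ctrl, of which 1 marker, *Cd68*, had a mean of at least 1 RPKM. *Cd68* held 2.16 to 4.12 RPKM in *Ctcflos* KD and 0.657 to 1.92 RPKM in NC ctrl, and *Csf1r* held 1.10 to 1.48 RPKM against 0.269 to 0.833 RPKM, so that in both every KD library was above every control. *Ptprc* and *Adgre1* (listed as *Emr1*) had the lower mean in *Ctcflos* KD, at 0.00199 against 0.0327 RPKM and 0.0616 against 0.170 RPKM, and did not exceed 0.0486 and 0.345 RPKM in any library. None of 4 endothelial markers reached 1 RPKM, with sums of 0.647 to 0.922 RPKM in *Ctcflos* KD and 1.07 to 1.35 RPKM in NC ctrl. The summed brite markers were at 16.8 to 29.8 RPKM in *Ctcflos* KD and 33.4 to 78.0 RPKM in NC ctrl. The brite sum was mostly *Ucp1*, at 23.6, 26.1 and 12.4 RPKM in *Ctcflos* KD and 67.0, 27.1 and 57.3 RPKM in NC ctrl. The replicates 2 of both groups were thus nearly level in *Ucp1*. The 5 progenitor markers were at 178.6 to 398.4 RPKM in *Ctcflos* KD and 274.5 to 448.6 RPKM in NC ctrl. The progenitor sum was mostly *Ly6a*, with means of 281.1 RPKM in *Ctcflos* KD and 346.1 RPKM in NC ctrl. *Pdgfra* (13.1 against 21.8 RPKM) and *Dpp4* (0.00557 against 0.0138 RPKM) were also lower in the mean. *Pdgfrb* (11.5 against 9.95 RPKM) and *Cd34* (1.70 against 1.37 RPKM) were higher. The part of these differences in the changes of the p53 genes was not tested.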

How the data were processed

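RNA was measured in 3 *Ctcflos* KD and 3 NC ctrl libraries made with a stranded total RNA kit. The authors deposited 1 table of RPKM values, written with decimal commas, in 168326 lines, each for an accession from RefSeq, Ensembl or GenBank. For the splice analysis they aligned with STAR to GRCm38, and how this table was made is not given in the sources used here. After 305 exact repeat lines were removed, RPKM was averaged over the accessions of a symbol, and log2(RPKM + 1) was tested with limma-trend (limma 3.58.1, R 4.3.3) in genes with a mean of at least 1 RPKM, with Benjamini-Hochberg adjustment. Fold changes on this scale understate those of weak genes. Single-gene exact two-sided permutation tests of 3 against 3 cannot go below p = 0.1. Depth was recovered from Ensembl transcripts with a Gencode vM21 length, where at least 94.5% of low values were whole reads within 0.02. On simulated data for this comparison, with changes of 1 on the log2 scale, 200 of 200 genes were recovered with 10 false calls among 11520 genes. Every simulated gene had the same SD of 0.129 on the log2 scale, and changes were planted only in genes above a set level. The simulation thus does not show how smaller changes, or changes in genes with a wider spread, would be recovered.

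The members and lists were chosen with earlier results of these data known. All 10 p53 genes are named, with *Ctcflos*, 8 preset genes (*Mdm4*, *Ppm1d*, *Gadd45a*, *Pmaip1*, *Fas*, *Rpl5*, *Rpl11*, *Atm*) and, from each list, up to 3 genes called in each direction with the smallest adjusted p whose groups do not overlap. *Cdkn2b* lies outside this rule. *Pict1*, an older name in the nucleolar list, matched no symbol, and *Nop53* of the same list was tested under the symbol *Gltscr2*. Gene positions come from Gencode vM21 on GRCm38 and promoters from RefSeq. Alternatives were a pseudocount of 0.1, no filter, median of ratios scaling, a block for the replicate number, RefSeq accessions or the most abundant accession alone, no intensity trend, and leaving out each library.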

Additional observations from a re-analysis of the deposited data

How the results depend on the processing

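Of the 10 p53 genes, 9 kept their direction under all 13 alternatives, and *Phlda3* turned to 0.0018 on the log2 scale without *Ctcflos* KD replicate 2 (from -0.0875 over the libraries left out). The count of 5 called p53 genes became 3 with the most abundant accession alone, and ranged from 1 (without NC ctrl replicate 1) to 6 (without *Ctcflos* KD replicate 3) when a library was left out, with 2 without NC ctrl replicate 3. *Trp53inp1* was called throughout, and *Ccng1*, *Zmat3*, *Bbc3* and *Phlda3* under none. The count of 21 called list genes became 10 without a filter on low values and 12 with the replicate block, and leaving out a library gave 0 (without NC ctrl replicate 1 or 3) to 32 (without *Ctcflos* KD replicate 3). Where limma-trend called 0, 24 of 83 and 27 of 84 list genes had an unadjusted p under 0.05, as did 3323 of all genes in each setting. Over all genes, 2803 calls became 1807 without a filter and 1671 with the replicate block, and 369 to 4810 with a library left out. Leaving out a library leaves fewer samples to test, and other causes were not tested. Same-numbered libraries had correlations of their deviations of 0.29, -0.29 and -0.42. These cannot show whether the numbers are pairs, as each rests on deviations from a mean of 3 libraries. Replicate 3 was the shallowest library of both groups, at 60.8 mio mapped reads in *Ctcflos* KD and 62.9 mio in NC ctrl. The numbers were used only in the replicate block. With the replicate block, 4 p53 genes were called, *Bax* being lost (adjusted p = 0.0933, limma-trend). Scaling by the median of ratios called 1353 genes higher and 1603 lower and moved the median log2 fold change of all genes from 0.03 to 0.0044. With 3 libraries a group and a call that can rest on 1 control, changes of the size of *Bax* are at the limit of this design.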
